A study of Mus musculus with 13 samples.

Results

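Perforin (Prf1) and 9 granzymes (Gzma, Gzmb, Gzmc, Gzmd, Gzme, Gzmf, Gzmg, Gzmk and Gzmm) were chosen by gene symbol, as effectors of killer lymphocytes. The table spells them PRF1, GZMA, GZMB, GZMC, GZMD, GZME, GZMF, GZMG, GZMK and GZMM. All 10 were among the 24170 genes of the deposited table, and 8 reached 1 FPKM (fragments scaled to transcript length and to the total of the library) in at least 1 group of tumors. The table came from polyadenylated RNA of 4T1 tumors, formed by a transplantable BALB/c mammary carcinoma line implanted into a fat pad of the mammary gland (the fourth) of BALB/c females 7 weeks of age by the sample labels, where the methods give a slightly younger age. The host was immunocompetent, and the RNA was that of whole tumors, so tumor and host cells were measured together. Cyclophosphamide (CPA), a prodrug that the liver turns into a DNA alkylator, was injected at 130 mg/kg every 6 days by the labels and methods, although the list of libraries names a slightly higher dose. Libraries numbered 3 for vehicle (PBS), 3 for 2 cycles, 3 for 4 cycles and 2 for 7 cycles, and 2 came from regrowing tumors, which had received 4 cycles and then no CPA for 18 days. Each library was a pool of RNA from 2 to 3 tumors. Mice given vehicle or 2 cycles were 10 to 11 weeks old, those given 4 cycles 12 to 13 weeks, and those given 7 cycles or left to regrow 14 to 15 weeks, so that age and cycle number cannot be told apart beyond 2 cycles.

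Killer lymphocytes, mainly natural killer (NK) cells and cytotoxic CD8 T cells, store perforin and granzymes in secretory granules and release them onto a target cell. Perforin forms pores in the membrane of the target, and the granzymes, a family of serine proteases, pass through and cleave proteins inside it. Granzyme B cleaves after aspartate and activates caspases, whereas granzyme A and granzyme K cleave after basic residues and granzyme M after methionine or leucine. Granzymes C to G and N are rodent enzymes with no separate human counterpart. Their genes lie in one row with Gzmb.

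The table gave 1 value per gene and group, the mean over the libraries of that group. Because each library value was a whole number of reads divided by a gene length and a library total, the reads of each library could be solved for, at the smallest gene length that gave whole reads in all 5 groups, and a single solution was found for all 10 members. Libraries are named 1, 2 and 3 within a group in order of decreasing total, which ran from 36624937 to 60501929 counted reads. The name carries no pool number. These totals are several times the average number of read pairs that the methods give for tumor-derived libraries. A counted read may therefore not be a separate sequenced fragment. The read numbers below may overstate the independent fragments behind a value. Differences between groups were tested with limma on log2(FPKM + 0.1) over the 13 libraries and 10482 genes, with Benjamini-Hochberg adjustment over all of them. Calls required an adjusted p below 0.05, a change of at least 2-fold and 1 FPKM or more in the higher group. A gene below 1 FPKM in vehicle was thus tested against vehicle only where the other group reached 1 FPKM. Such a gene could only be called higher.

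In the mm9 coordinates of the table, counted from 1, 7 granzyme genes filled 144.6 kb of chromosome 14. Their order was Gzme (chr14:56736456-56739462), Gzmd (chr14:56748405-56751430), Gzmg (chr14:56775418-56778416), Gzmn (chr14:56784633-56793433), Gzmf (chr14:56824100-56830244), Gzmc (chr14:56850238-56853493) and Gzmb (chr14:56877695-56881097). Gzmn is not a member of the set but stands in the middle of the row. Gzma (chr13:113884035-113891189) and Gzmk (chr13:113962082-113971105) are neighbours on chromosome 13, while Prf1 (chr10:60760584-60767011) and Gzmm (chr10:79156571-79158006, or chr10:79151765-79158006 from a second annotated start) lie apart on chromosome 10.

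The upstream sequences of the row on chromosome 14 are shown because those of Gzmc to Gzmg resemble each other. That of Gzmn, inside the same row, does not resemble them. A link between upstream sequence and expression was not tested. The stretches run from 200 to 100 bases before the annotated start, 5′ to 3′ on the strand of the gene, which is the minus strand for each. They are RefSeq sequences of build GRCm38.p6, not of mm9. Capitals mark TGTGGT, the core of the motif bound by RUNX factors, or its reverse complement ACCACA.
Gzme, chr14:56120725-56120825: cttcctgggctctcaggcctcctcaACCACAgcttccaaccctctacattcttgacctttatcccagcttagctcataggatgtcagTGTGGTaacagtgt
Gzmd, chr14:56132693-56132793: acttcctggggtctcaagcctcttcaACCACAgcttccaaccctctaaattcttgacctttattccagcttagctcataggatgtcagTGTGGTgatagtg
Gzmg, chr14:56159679-56159779: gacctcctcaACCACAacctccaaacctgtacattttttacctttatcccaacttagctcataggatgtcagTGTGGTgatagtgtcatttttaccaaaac
Gzmn, chr14:56174699-56174799: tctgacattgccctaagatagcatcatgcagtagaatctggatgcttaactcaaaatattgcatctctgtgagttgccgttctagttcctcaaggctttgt
Gzmf, chr14:56211507-56211607: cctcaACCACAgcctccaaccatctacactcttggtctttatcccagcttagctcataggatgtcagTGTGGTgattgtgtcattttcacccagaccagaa
Gzmc, chr14:56234757-56234857: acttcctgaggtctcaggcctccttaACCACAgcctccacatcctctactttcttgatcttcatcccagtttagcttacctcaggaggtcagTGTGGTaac

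Each of Gzmc, Gzmd, Gzme, Gzmf and Gzmg held 1 match in each orientation, with the first bases of the matches 62 bases apart in Gzmd to Gzmg and 66 bases apart in Gzmc. Over all 32851 upstream sequences of 250 bases, 14% held the RUNX letters on either strand and 0.499% held them in both orientations. Across the whole 250 bases, Gzmc to Gzmg were 70.2% to 94.8% identical in their 10 pairs, and Gzmn was 44.8% to 48.9% identical to them, with no RUNX match. In coding sequence, by contrast, Gzmn was 70.1% to 83.1% identical to the same 5 genes. The match is a description of these letters and not evidence of binding.

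Gzmb was no more like its neighbours upstream than Gzmn was, at 44.1% to 47.5% identity to Gzmc to Gzmg. It held 2 RUNX matches closer to the start, both on the gene strand, and between them an AP-1 match (TGANTCA on either strand, present in 6.75% of all upstream sequences). The last 100 bases before its start are shown with these 3 matches in capitals, minus strand, GRCm38.p6.
Gzmb, chr14:56262335-56262434: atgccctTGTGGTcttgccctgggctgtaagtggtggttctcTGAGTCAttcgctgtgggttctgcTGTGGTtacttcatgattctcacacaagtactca
The upstream sequence of Prf1 held 1 RUNX match, shown here from 150 to 100 bases before its start on the plus strand of GRCm38.p6.
Prf1, chr10:61297686-61297736: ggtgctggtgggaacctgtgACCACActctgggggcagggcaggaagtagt
Of the other members, Gzma held 1 RUNX match and Gzmk none. Gzmm has a pair of annotated starts, and its RUNX and STAT matches lay before the outer start and its T-box match before the inner one. T-box letters (GGTGTGA, in 3.33% of all upstream sequences) were found in Gzmk and Gzmm. STAT letters (TTCNNNGAA, 7.02%) were found in Gzmm and a match to the interferon-stimulated response element (2.98%) in Gzma. ETS letters (CCGGAAGT, 2.88%) were found in no member.

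**Figure D1:**
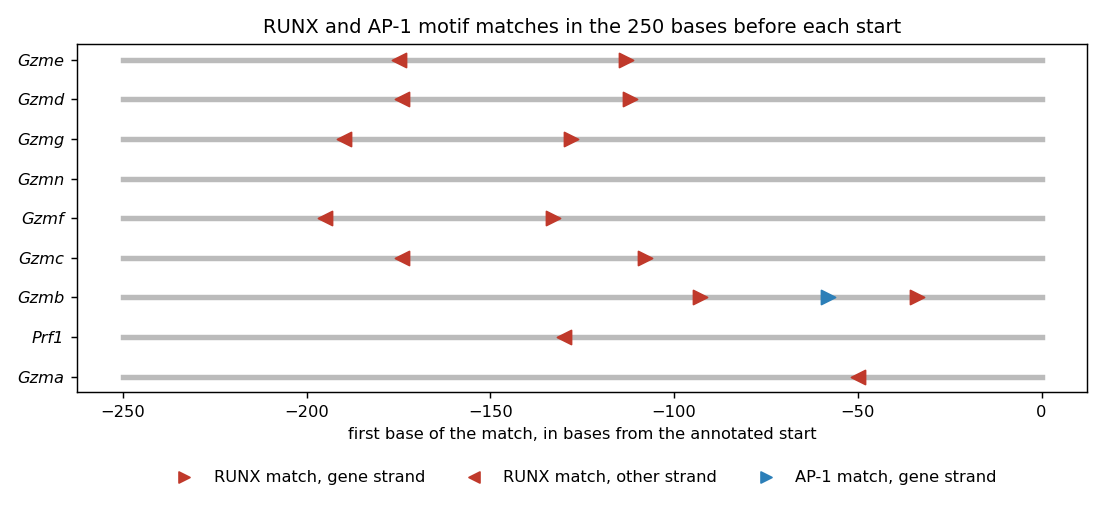
Positions of RUNX and AP-1 motif matches in the 250 bases before the annotated start (x axis, bases from the start) of 9 genes, those of chromosome 14 in their order along the chromosome and then Prf1 and Gzma. Triangles point along the strand of the match, and Gzmc to Gzmg each show the same outward-facing pair, which Gzmn lacks.

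Since near-identical genes can exchange reads, the transcripts were compared in windows of 100 bases. Coding identity was highest between Gzmd and Gzme (93.3%), followed by Gzme and Gzmg (89.6%), Gzmf and Gzmg (86.9%) and Gzmd and Gzmg (86.9%). Even so, only 2 windows, shared by Gzmd and Gzmg, were identical between any members. How the authors treated reads that fit more than 1 place is not given in the sources used here, so the split of reads among Gzmd, Gzme, Gzmf and Gzmg remains uncertain where reads carried mismatches.

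After 2 CPA cycles perforin and the granzymes from Gzmb to Gzmg rose together. Of the 8 members tested, 7 were called higher than in vehicle (Prf1, Gzmb, Gzmc, Gzmd, Gzme, Gzmf and Gzmg) and none lower, against 2.82% of all 10138 genes tested called higher. The 2-cycle libraries lay wholly above the vehicle libraries for 8 members, as they did for 23.1% of all genes tested. The median log2 difference over the 8 tested was 2.72, beside 0.06 over all genes tested. After 4 cycles the same 7 were called higher again, where 3.35% of all genes were, with a median log2 difference of 2.03 beside 0.09. The 4-cycle libraries lay wholly above vehicle for these 7, an order found in 28.2% of all genes tested. Fewer cells of a type and less RNA per cell cannot be told apart in whole tumors, and this holds for each result below.

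Perforin, the pore former, stood at 1.98, 1.29 and 1.33 FPKM in the vehicle libraries and at 11.4, 10.6 and 9.39 FPKM after 2 cycles. After 4 cycles Prf1 was at 6.03, 5.74 and 3.14 FPKM. It was at 1.05 and 0.935 FPKM after 7 cycles and at 0.846 and 0.746 FPKM in regrowth. All libraries of 2 and 4 cycles therefore lay above all vehicle libraries, and all libraries of 7 cycles and regrowth lay below them. These levels rested on 100 to 234 reads per vehicle library and 758 to 1116 reads per library after 2 cycles. The log2 difference of Prf1 from vehicle was 2.72 ± 0.23 (SE) after 2 cycles (6.57-fold, limma adjusted p = 0.00018) and 1.60 ± 0.23 after 4 cycles (3.04-fold, adjusted p = 0.0016).

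Granzyme B, the caspase-activating member, followed the same course at nearly the same level. Gzmb was at 2.36, 1.45 and 1.68 FPKM in vehicle and at 11.0, 8.97 and 8.495 FPKM after 2 cycles. It was at 6.38, 6.89 and 3.05 FPKM after 4 cycles. The values after 7 cycles were 1.32 and 1.41 FPKM, and those in regrowth 2.09 and 0.812 FPKM. The 2-cycle and 4-cycle libraries did not overlap with vehicle, and the 7-cycle libraries lay just below it. Of the regrowth libraries, 1 lay inside the vehicle range and 1 below it. The log2 difference from vehicle was 2.33 ± 0.35 after 2 cycles (adjusted p = 0.0026) and 1.47 ± 0.35 after 4 cycles (adjusted p = 0.018). The 4-cycle call for Gzmb was lost without vehicle library 2 or 3 or without 4-cycle library 1 or 2, with adjusted p from 0.059 to 0.067 and log2 differences from 1.26 to 1.42. The ratio of Gzmb to Prf1 in FPKM stayed between 0.843 and 1.504 in all libraries but regrowth library 1, where it was 2.46.

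**Figure D2:**
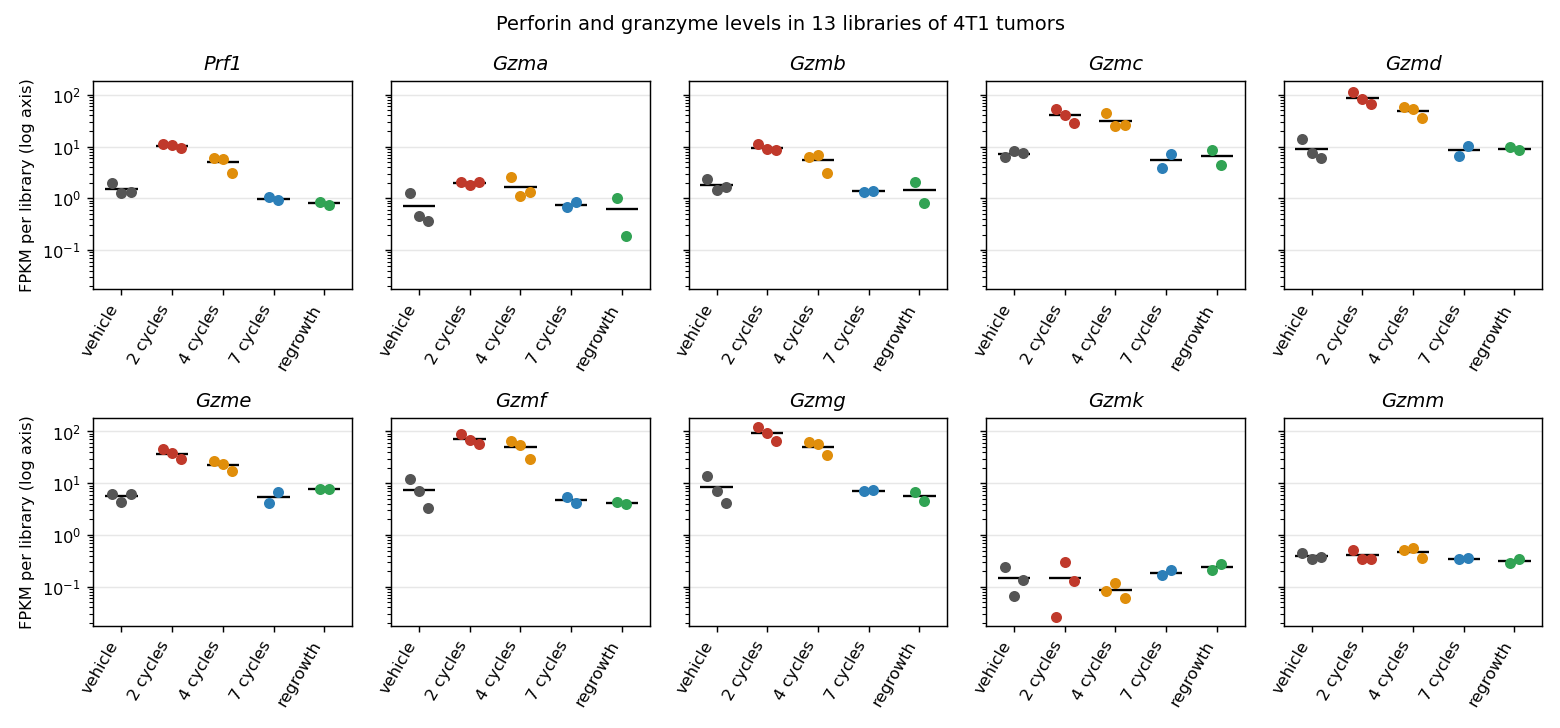
FPKM of each member in each of the 13 libraries on a log axis, 1 point per library in order of decreasing total within a group and a bar at the group mean. Prf1 and Gzmb to Gzmg peaked after 2 cycles and were back near the vehicle range after 7 cycles and in regrowth, while Gzmk and Gzmm stayed under 1 FPKM throughout.

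Gzmg, Gzmd and Gzmf, which lie next to each other apart from Gzmn, were the most abundant members after 2 and 4 cycles and changed most. Gzmg was at 14.1, 7.04 and 4.17 FPKM in vehicle and at 120.9, 92.1 and 65.8 FPKM after 2 cycles. After 4 cycles it was at 62.3, 56.1 and 34.5 FPKM, after 7 cycles at 7.14 and 7.32 FPKM, and in regrowth at 6.67 and 4.63 FPKM. The lowest 4-cycle library was thus above the highest vehicle library, and the late groups lay inside the vehicle range. The log2 difference of Gzmg from vehicle was 3.58 ± 0.40 after 2 cycles (11.9-fold, adjusted p = 0.00055), the largest among the members, and 2.71 ± 0.40 after 4 cycles (adjusted p = 0.0017).

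Gzmd was at 13.9, 7.35 and 6.03 FPKM in vehicle and at 113.0, 84.4 and 67.1 FPKM after 2 cycles. It was at 56.9, 54.1 and 35.0 FPKM after 4 cycles, 6.46 and 10.4 FPKM after 7 cycles, and 9.68 and 8.61 FPKM in regrowth. Only the 2-cycle and 4-cycle libraries of Gzmd left the vehicle range. The log2 difference was 3.32 ± 0.32 after 2 cycles (10.0-fold, adjusted p = 0.00032) and 2.47 ± 0.32 after 4 cycles (5.53-fold, adjusted p = 0.00096).

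Gzmf was at 12.1, 7.07 and 3.39 FPKM in vehicle and at 91.4, 69.5 and 57.5 FPKM after 2 cycles. After 4 cycles it was at 64.8, 55.1 and 29.4 FPKM, after 7 cycles at 5.36 and 4.25 FPKM and in regrowth at 4.401 and 3.98 FPKM. Vehicle library 1 held the highest vehicle value of Gzmf, as it did of Gzmg, Gzmd, Gzme, Gzmb, Gzma and Prf1. The log2 difference of Gzmf was 3.41 ± 0.41 after 2 cycles (10.6-fold, adjusted p = 9e-04) and 2.81 ± 0.41 after 4 cycles (7.02-fold, adjusted p = 0.0017).

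Gzmc and Gzme, at the other places of the row, were present at about the level of the 3 above in vehicle but at lower levels than these after 2 cycles. Gzmc was at 6.28, 8.23 and 7.51 FPKM in vehicle, 52.5, 41.1 and 28.6 FPKM after 2 cycles and 43.9, 25.4 and 26.1 FPKM after 4 cycles. Gzmc was at 3.89 and 7.08 FPKM after 7 cycles and at 8.72 and 4.38 FPKM in regrowth. It was thereby the member with the smallest difference between 2 and 4 cycles among those called, with a log2 difference from vehicle of 2.42 ± 0.33 (adjusted p = 0.0016) and 2.06 ± 0.33 (adjusted p = 0.0028).

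Gzme was at 6.31, 4.26 and 6.24 FPKM in vehicle, 45.2, 38.3 and 29.1 FPKM after 2 cycles and 27.4, 24.0 and 17.02 FPKM after 4 cycles. It was at 4.10 and 6.78 FPKM after 7 cycles and at 7.82 and 7.73 FPKM in regrowth. Both regrowth libraries of Gzme lay above the 3 vehicle libraries, the only such case among the members and one shared by 28.0% of all genes tested, but the difference was small (log2 0.49, 95% interval -0.13 to 1.10, adjusted p = 0.22). The log2 difference from vehicle was 2.72 ± 0.25 after 2 cycles (adjusted p = 0.00021) and 2.00 ± 0.25 after 4 cycles (adjusted p = 0.00071).

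Granzyme A, the basic-residue protease that is abundant in resting NK cells, was far lower. Gzma was at 1.29, 0.466 and 0.373 FPKM in vehicle, 2.06, 1.85 and 2.03 FPKM after 2 cycles and 2.53, 1.09 and 1.31 FPKM after 4 cycles. It was at 0.678 and 0.837 FPKM after 7 cycles and at 1.03 and 0.191 FPKM in regrowth, the last of these from 7 reads. The 2-cycle libraries lay above all vehicle libraries and the 4-cycle libraries overlapped with them, by vehicle library 1. The log2 difference was 1.53 ± 0.51 after 2 cycles (95% interval 0.40 to 2.66, adjusted p = 0.082) and 1.19 ± 0.51 after 4 cycles (adjusted p = 0.13), so that Gzma was the tested member that was not called. Without vehicle library 1 the 2-cycle difference was 2.00 and was called (adjusted p = 0.035), and so was the 4-cycle difference of 1.66 (adjusted p = 0.050, below the limit before rounding). The 2-cycle difference was also called without either regrowth library (adjusted p = 0.035).

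Gzmk, the neighbour of Gzma, and Gzmm were near the limit of detection. Gzmk was measured from 1 to 11 reads per library and lay between 0.0265 and 0.297 FPKM. Gzmm was measured from 17 to 36 reads per library and lay between 0.288 and 0.562 FPKM. Neither reached the 1 FPKM needed for the test. In a fit without that minimum, the log2 differences from vehicle lay between -0.35 and 0.51 for Gzmk and between -0.23 and 0.24 for Gzmm, with adjusted p of 0.40 or more. The standard error of these differences of Gzmk was 0.377 to 0.421 (log2), so small changes of Gzmk were not detectable. Gzmn was found at 0 to 8 reads per library.

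Levels per kilobase allow the members to be ordered within a group. After 2 cycles the order was Gzmg (92.9 ± 27.6 FPKM, SD, n = 3), Gzmd (88.2 ± 23.2), Gzmf (72.8 ± 17.2), Gzmc (40.7 ± 12.0), Gzme (37.5 ± 8.10), Prf1 (10.5 ± 1.02), Gzmb (9.48 ± 1.32), Gzma (1.98 ± 0.113), Gzmm and Gzmk. The library ranges of Gzmg, Gzmd and Gzmf overlapped with their neighbour in this order, as did those of Gzmc and Gzme and those of Prf1 and Gzmb, and the remaining steps were gaps. In vehicle, Gzmd, Gzmg, Gzmf, Gzmc and Gzme formed 1 overlapping run from 9.10 ± 4.23 down to 5.61 ± 1.17 FPKM, above Gzmb at 1.83 ± 0.475 and Prf1 at 1.53 ± 0.388 FPKM. In regrowth the order among these 5 was Gzmd, Gzme, Gzmc, Gzmg and Gzmf, with Gzmf last at 4.19 ± 0.299 FPKM (n = 2).

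The makeup of the granzyme RNA also differed between groups. Gzmc to Gzmg made up 91.5% to 93.6% of the summed FPKM of the 9 granzymes in the vehicle libraries, 95.7% to 96.9% after 2 cycles and 96.1% to 96.7% after 4 cycles. The share was 91.5% and 92.7% after 7 cycles and 91.2% and 94.8% in regrowth. The 2-cycle and 4-cycle shares thus lay above the vehicle range. The ratio of Gzmd to Gzmb was 3.596 to 5.90 across the vehicle libraries, 7.90 to 10.3 after 2 cycles and 7.86 to 11.5 after 4 cycles. It was 4.895 and 7.38 after 7 cycles and 4.64 and 10.6 in regrowth, so that 1 library of each late group also lay above the vehicle range. The ratio of Gzme to Gzmd, the most similar pair in sequence, was 0.453, 0.580 and 1.035 in vehicle, 0.400 to 0.454 after 2 cycles, 0.444 to 0.487 after 4 cycles, 0.635 and 0.654 after 7 cycles and 0.807 and 0.898 in regrowth. The vehicle libraries thus overlapped with the 2-cycle range and enclosed the 4-cycle, 7-cycle and regrowth values except the lowest 4-cycle value. These ratios were derived after the values were seen and were not tested.

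The summed FPKM of the 10 members was 31.2 to 59.1 in vehicle, 268 to 448 after 2 cycles, 149.9 to 271 after 4 cycles, 30.5 and 39.5 after 7 cycles and 31.7 and 41.8 in regrowth. Within vehicle, 2 cycles, 4 cycles and regrowth, the library with the larger total also had the larger sum, and after 7 cycles the order was the other way round. Between groups, totals and sums did not run together, since vehicle libraries 1 and 2, at 57487914 and 56185788 reads, exceeded every 2-cycle library. The part of the total in the spread within groups was not tested.

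Later cycles were then compared with 2 cycles. Between 2 and 4 cycles all 8 tested members were lower by the fitted values, with a median log2 difference of -0.79 beside 0.02 over all genes tested, but limma called none of them, nor any of the 10087 genes tested (0.0%). At an unadjusted p below 0.05, 4 members were lower (Prf1, Gzmb, Gzmd and Gzme) and none higher, among 917 genes in either direction. A fit in which the variance followed the mean level likewise called no gene. For Prf1 the log2 difference was -1.11 (95% interval -1.63 to -0.60, adjusted p = 0.19). By the 2-fold limit on group values alone, without a test, Prf1 was the 1 member lower after 4 cycles than after 2.

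After 7 cycles the members were lower than after 2. Compared with 2 cycles, 7 of 8 were called lower (Prf1 and Gzmb to Gzmg), where 2.53% of all genes were, with a median log2 difference of -3.08 beside -0.03. Both 7-cycle libraries lay below the 3 libraries of 2 cycles for each of the 7, an order found in 29.9% of all genes tested. The largest difference was that of Gzmf (-3.88 ± 0.46, adjusted p = 0.0017) and the smallest among the 7 that of Gzmb (-2.70 ± 0.40, adjusted p = 0.0032). Gzma was lower by a log2 difference of -1.28 that was not called (adjusted p = 0.13). Compared with 4 cycles the same 7 were called lower, where 0.405% of all genes were, with adjusted p from 0.015 to 0.041. The 7 log2 differences were -1.84 to -3.28. Without 4-cycle library 1 they were -1.68 to -3.05 and none of the 7 was called (adjusted p from 0.055 to 0.14). In that fit 0 of all genes tested were called lower. Without 7-cycle library 2 the 7 differences were -1.88 to -3.11. That fit left 1 library in the group, so its calls are not given. Gzmb also lost its call without vehicle library 2 or 3, without any 1 of the 2-cycle libraries, or without 4-cycle library 2 (adjusted p from 0.054 to 0.08).

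Compared with vehicle, 0 of 7 members tested were called after 7 cycles, where 6.65% of all genes were called in either direction by limma, and the count was 0 also at an unadjusted p below 0.05 and with the variance trend. The unadjusted limit was passed by 4434 of all 10193 genes tested, in either direction. Both 7-cycle libraries lay below all vehicle libraries for Prf1 and Gzmb, an ordering that 23.9% of all genes tested showed. The log2 difference of Prf1 was -0.56 (95% interval -1.14 to 0.02, adjusted p = 0.13). The intervals of Gzmd (-0.86 to 0.74), Gzme (-0.68 to 0.55) and Gzmg (-1.03 to 0.94) were centred near 0 and leave room for changes of nearly 2-fold in either direction.

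**Figure D3:**
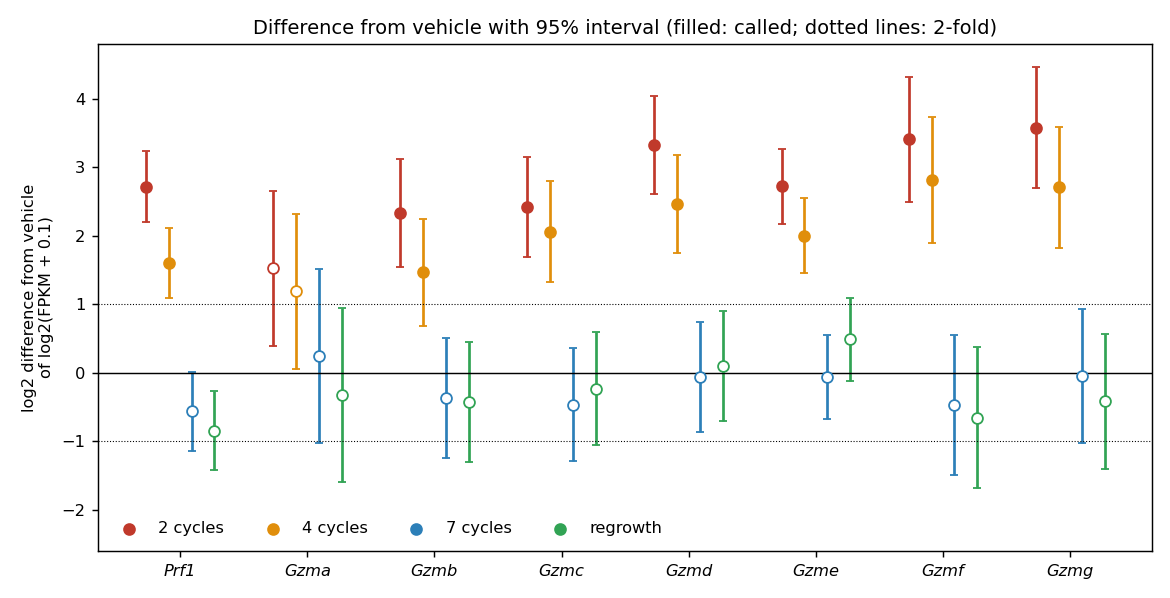
Log2 difference from vehicle of the 8 members tested, with 95% intervals from limma over the 13 libraries, for 2 cycles, 4 cycles, 7 cycles and regrowth. Filled points were called (adjusted p below 0.05 and at least 2-fold, dotted lines), which holds for all members but Gzma after 2 and 4 cycles and for none after 7 cycles or in regrowth.

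Regrowing tumors, which had received the same 4 cycles, did not keep the 4-cycle levels. Compared with 4 cycles, 7 of 8 members were called lower in regrowth (Prf1 and Gzmb to Gzmg), where 3.89% of all genes were, with a median log2 difference of -2.33 beside -0.06. The difference was largest for Gzmf (-3.46 ± 0.46, adjusted p = 0.0013) and was -2.45 ± 0.26 for Prf1 (adjusted p = 5e-04). It was -1.51 both for Gzme (adjusted p = 0.0049) and for Gzma, which was not called (adjusted p = 0.087).

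Compared with vehicle, limma called 0 of 7 members in regrowth, where 2.71% of all genes were called in either direction, and the fit with a variance trend called 0 as well. At an unadjusted p below 0.05, 1 member was lower, Prf1, with a log2 difference of -0.84 (95% interval -1.42 to -0.27) and an adjusted p of 0.048 that fell short of 2-fold. The unadjusted limit was passed by 3766 of all 10044 genes tested, in either direction. Both regrowth libraries lay below vehicle for Prf1 and Gzmm, as for 24.4% of all genes tested. The adjusted p of Prf1 ran from 0.019 to 0.19 when single libraries were left out. Between regrowth and 7 cycles, which share the age of the mice, 0 of 6 members tested were called by limma, 0 were below an unadjusted p of 0.05, 0 were called with the variance trend, and 1.36% of all genes were called in either direction. Here 1879 of all 10037 genes tested were below an unadjusted p of 0.05. The 4 comparisons with vehicle share the same 3 vehicle libraries and are not independent of each other.

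Markers of killer lymphocytes were read beside the members. Of 10 NK cell markers, 3 were tested after 2 cycles, where 2.82% of all genes tested were called higher (3.35% after 4 cycles). All 3 were below 1 FPKM in vehicle (Klrk1 0.582, Klrd1 0.691 and Klrc1 0.340). These markers entered the test only through the treated group, so they could only be called higher. Klrk1, the activating receptor NKG2D (log2 1.12, adjusted p = 0.0055), and Klrd1, the CD94 subunit of NKG2 receptors (log2 1.69, adjusted p = 0.032), were called higher. Klrc1, the inhibitory NKG2A subunit, joined them after 4 cycles (log2 1.45, adjusted p = 0.037). Their summed level was 1.90 to 3.30 FPKM in vehicle, 6.75 to 7.08 after 2 cycles, 4.42 to 7.82 after 4 cycles, 3.34 and 4.08 after 7 cycles and 1.33 and 3.81 in regrowth. The sum covers 9 of the 10 genes, because the library values of Itga2 could not be solved, and Klra4 and Klra8 were listed at 0 in every group. By its group values Itga2 went the other way. It was at 6.01 FPKM in vehicle, 2.41 after 2 cycles, 1.175 after 4 cycles, 0.830 after 7 cycles and 1.85 in regrowth. In vehicle it exceeded the sum of the other genes, so the course of the sum depends on leaving Itga2 out. Ncr1, a defining NK marker, stood at 0.227 FPKM in vehicle, 0.581 after 2 cycles, 0.542 after 4 cycles, 0.067 after 7 cycles and 0.179 in regrowth.

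Of 10 CD8 T cell markers, 7 were tested after 2 cycles and limma called none, with 2 higher at an unadjusted p below 0.05 and none called with the variance trend. After 4 cycles 0 of 6 were called, with 1 higher at an unadjusted p below 0.05 and 0 with the trend. In either direction, 2763 of all 10138 genes tested passed the unadjusted limit after 2 cycles and 3411 of 10147 after 4 cycles. The median log2 difference of the tested CD8 T cell markers from vehicle was 1.04 after 2 cycles and 0.77 after 4 cycles. Cd8a and Cd8b1, the genes of CD8 itself, are listed beside genes of T cells in general, such as Cd3e and Lck. Cd8a was at 0.724 FPKM in vehicle, 2.32 after 2 cycles, 1.88 after 4 cycles, 1.28 after 7 cycles and 1.13 in regrowth. Cd8b1 was at 0.582, 1.85, 1.335, 1.07 and 1.37 FPKM in the same groups. The summed level of all 10 was 3.53 to 14.5 FPKM in vehicle, 9.53 to 21.1 after 2 cycles, 8.87 to 15.5 after 4 cycles, 8.08 and 9.78 after 7 cycles and 3.598 and 22.2 in regrowth, and none was at 0 in any group. Vehicle library 3, with the highest CD8 T cell sum in its group (14.5 FPKM), had the lowest member sum (31.2 FPKM). After 2 cycles, library 1 had the lowest CD8 T cell sum (9.53 FPKM) and the highest member sum (448 FPKM). After 4 cycles library 3 had the highest CD8 T cell sum (15.5 FPKM) and the lowest member sum (149.9 FPKM), and after 7 cycles library 1 had the higher CD8 T cell sum (9.78 FPKM) and the lower member sum (30.5 FPKM). In regrowth, library 1 was the higher in both (22.2 against 3.598 FPKM of CD8 T cell markers and 41.8 against 31.7 FPKM of members). The part of NK and CD8 T cell number in the member levels was not tested.

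**Figure D4:**
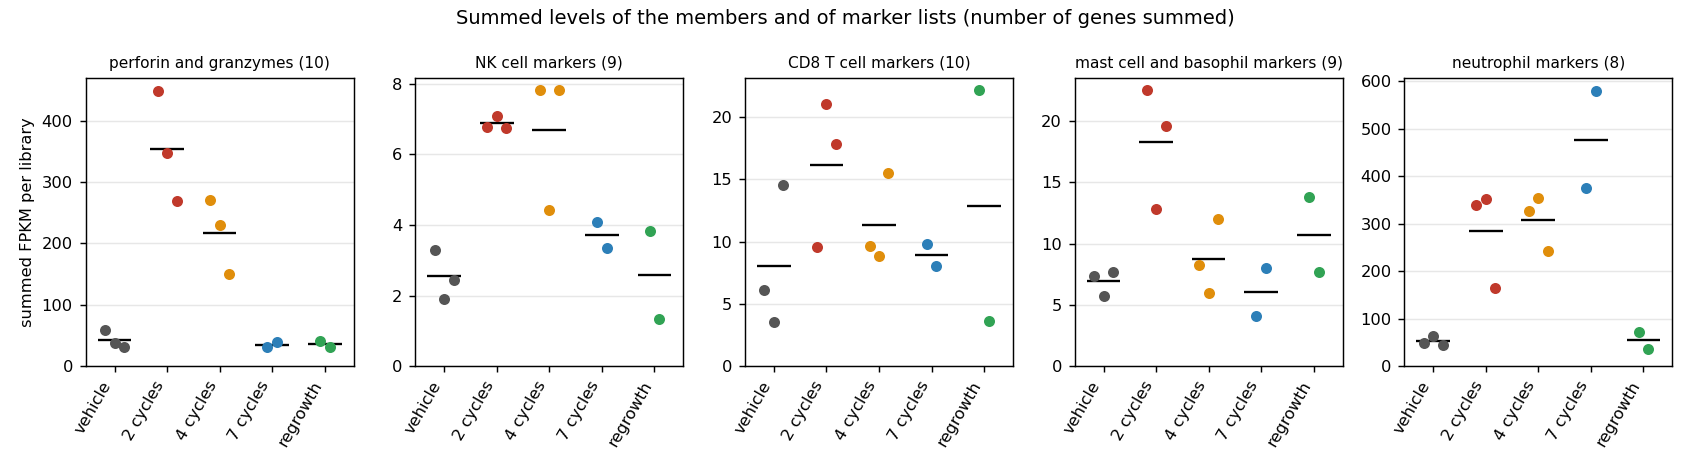
Summed FPKM per library of the 10 members and of 4 marker lists, each on its own axis from 0, with a bar at the group mean. From vehicle to 2 cycles the mean sum went from 42.6 to 355 FPKM for the members, 2.54 to 6.87 for NK and 8.05 to 16.1 for CD8 T cell markers. The NK sum leaves out Itga2, which fell from 6.01 to 2.41 FPKM. Neutrophil markers had their highest mean after 7 cycles (477 FPKM).

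Other cells of a tumor also carry granule proteases, so their markers were read beside the members. The summed level of 8 neutrophil markers was 45.0 to 63.1 FPKM in vehicle, 164 to 352 after 2 cycles, 243 to 353.8 after 4 cycles, 375 and 579 after 7 cycles and 36.8 and 71.5 in regrowth. All 8 were called higher after 2 cycles, and 7 each after 4 and 7 cycles, where 2.82%, 3.35% and 4.26% of all genes tested were. After 7 cycles S100a8 was at 200 FPKM and S100a9 at 189 FPKM, most of the neutrophil sum, and no member tested was called against vehicle. The part of neutrophils in the member levels was not tested. The 9 mast cell and basophil markers summed to 5.76 to 7.70 FPKM in vehicle, 12.8 to 22.6 after 2 cycles, 5.96 to 12.0 after 4 cycles, 4.06 and 8.01 after 7 cycles and 7.66 and 13.8 in regrowth, with none at 0. Tpsab1 (log2 2.08, adjusted p = 0.019) and Tpsb2 (log2 1.74, adjusted p = 0.030), mast cell tryptases, were called higher after 2 cycles, of 7 tested. After 4 cycles limma called none of 6 (0 higher and 1 lower at an unadjusted p below 0.05, as for 3411 of all 10147 genes, and 0 with the variance trend). From 2 to 7 cycles, 4 of 7 were called lower (Kit, Tpsab1, Tpsb2 and Cpa3), where 2.53% of all genes were. Against vehicle, 1 of 3 tested, Kit, was called lower after 7 cycles, where 2.39% of all genes were. The part of mast cells in the 2-cycle levels of the members was not tested.

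Of 16 genes for loading, processing and release of granules, 10 were tested after 2 cycles and 1 was called higher, where 2.82% of all genes were. It was Nkg7, a granule membrane protein of killer cells (log2 1.63, adjusted p = 0.023). Nkg7 was also called after 4 cycles (1.38, adjusted p = 0.033) and 7 cycles (1.39, adjusted p = 0.035). None of the members tested was called against vehicle at 7 cycles. Ctsc, the cathepsin that activates progranzymes, was not called against vehicle but was lower after 7 cycles than after 2 (log2 -1.13, adjusted p = 0.0060) and 4 cycles (-1.07, adjusted p = 0.029). The median log2 difference of the list was 0.32 after 2 cycles and 0.37 after 4 cycles.

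Of 6 intracellular inhibitors, 5 were tested, and 2 were called higher after both 2 and 4 cycles, where 2.82% and 3.35% of all genes were. Serpinb9b, a relative of the granzyme B inhibitor Serpinb9, was higher after 2 cycles (log2 2.33, adjusted p = 0.00091) and 4 cycles (2.19, adjusted p = 0.00093). Serpina3g, an inhibitor of cathepsins, was higher as well (1.77, adjusted p = 0.00052, and 1.11, adjusted p = 0.0041). Both were lower after 7 cycles than after 2 and in regrowth than after 4 cycles. Serpinb9 itself was at 4.59 FPKM in vehicle, 6.07 after 2 cycles and 5.46 after 4 cycles and was not called.

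Among 9 other effector genes of killer lymphocytes, 5 were tested and 3 chemokines were called higher after 2 and after 4 cycles. The shares of all genes called higher were 2.82% and 3.35%. Ccl5 had log2 differences of 2.87 (adjusted p = 0.0012) and 2.69 (adjusted p = 0.0012), Ccl4 of 1.41 and 1.35, and Ccl3 of 1.04 and 1.07. Ccl5 was called after 7 cycles as well (2.35, adjusted p = 0.0033), where no granzyme was. Ifng and Fasl were below 1 FPKM in all groups, with Ifng at 0.142 FPKM in vehicle, 0.617 after 2 cycles, 0.473 after 4 cycles and 0.171 after 7 cycles.

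Of 12 transcription factors of killer lymphocytes, 6 were tested in each comparison with vehicle and limma called none, with 2 higher at an unadjusted p below 0.05 after 2 cycles and none called with the variance trend. That unadjusted limit was passed after 2 cycles by 2763 of all 10138 genes tested, in either direction. Runx3, the RUNX factor of the list, was at 2.89 FPKM in vehicle, 3.80 after 2 cycles, 3.37 after 4 cycles, 2.38 after 7 cycles and 2.25 in regrowth. Tbx21 and Eomes, the T-box factors, stayed below 1 FPKM, with Tbx21 at 0.144 FPKM in vehicle, 0.343 after 2 cycles and 0.181 after 4 cycles. Of 16 cytokines and receptors that act on killer lymphocytes, 9 were tested after 2 cycles and 2 were called higher, where 2.82% of all genes were. These were Il2rb, the receptor subunit shared by IL-2 and IL-15 (log2 1.59, adjusted p = 0.010), and Il27 (log2 1.46, adjusted p = 0.0029). Il27 alone was called after 4 cycles (log2 1.19, adjusted p = 0.0055). Il2rb was lower again after 7 cycles than after 2 (log2 -2.09, adjusted p = 0.0047), as Prf1 was.

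Of 12 target cell proteins that granzymes or the caspases cleave, 8 were tested in each comparison with vehicle and limma and its variance trend called none. At an unadjusted p below 0.05, 3 were higher and 1 lower after 2 cycles and 5 higher and 1 lower after 7 cycles. In either direction, 2763 of all 10138 genes tested passed that limit after 2 cycles and 4434 of 10193 after 7 cycles.

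The genes with the course nearest to that of a member were found from the Euclidean distance over the 4 log2 differences from vehicle, across 10482 genes. Nearest to Prf1 were Fcrl6 (distance 0.45), Gzmb (0.62), Gzmc (0.82), Avil (1.23) and Clec7a (1.29). Nearest to Gzmb were Prf1 (0.62), Gzmc (0.64), Fcrl6 (0.70), Avil (0.77) and Clec7a (0.83). Fcrl6, an Fc receptor-like protein found in humans on cytotoxic lymphocytes, was at 0.313 FPKM in vehicle, 2.72 after 2 cycles, 1.40 after 4 cycles, 0.145 after 7 cycles and 0.181 in regrowth. Clec7a, the beta-glucan receptor of myeloid cells, was more abundant, at 8.13 FPKM in vehicle and 25.7 after 2 cycles.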

How the data were processed

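Poly(A) RNA of pooled 4T1 tumors was sequenced from strand-specific libraries. The submitters' notes name TopHat2, featureCounts, edgeR and build mm9. Which annotation and which versions were used is not given in the sources used here. FPKM were computed by the authors, who averaged the libraries of a group and deposited 1 value per gene and group. The table's ratio, fold change and p-value columns hold the authors' own comparisons and were not used. Of 24197 lines, 27 had a date in place of a symbol and were left out.

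Each group FPKM is the mean over libraries of whole reads per length and per library total. Totals were found from genes of 1 exon, and the reads were then solved for as integers at the smallest length that fitted all groups. Of 20568 genes listed above 0, 18964 (92.2%) had 1 solution there, and of 12056 genes with at least 1 FPKM in a group, 10482 (86.9%) did. The share was lower at high levels (60.8% above 50 FPKM), and unsolved genes were left out of the test. Solved values average back to the deposited values within 5.5e-12. These library values are a reconstruction. The analysis as designed compared group values without a test and named limma for the case that library values were at hand. The reconstruction was taken as that case after the table was seen, and group values without a test were kept as an alternative. The solved libraries carry no pool number.

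Values were tested on the log2(FPKM + 0.1) scale, which understates changes of low genes, with limma 3.58.1 in R 4.3.3, group as the only term and 8 residual degrees of freedom. Pools are not single animals, and p-values measure the spread between pools. Alternatives were pseudocounts of 1 and 0.01, rescaling to a common median ratio, no minimum or 0.5 FPKM, limits of 1.5-fold and 3-fold, each library left out, a variance trend and untested group values. The last 2 were added after the data were seen. The fit and the solver were tested on simulated data. The members and all lists were chosen with earlier results of these data known. All members are named. From each list up to 4 called genes per comparison with vehicle are named by size, and other named genes of the lists were chosen after their values were seen. Sequences were aligned and searched with Biopython 1.88 on GENCODE transcripts and RefSeq upstream sequences (GRCm38).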

Additional observations from a re-analysis of the deposited data

Results flagged for a closer look

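The difference of 7 members from vehicle changed with the number of cycles by the test of the difference itself (limma, adjusted over all genes), and each is given because the effects at 2 times on treatment differ. From 2 to 7 cycles the log2 change was -3.28 for Prf1 (adjusted p = 0.00059), -2.70 for Gzmb, -2.89 for Gzmc, -3.38 for Gzmd, -2.78 for Gzme, -3.88 for Gzmf and -3.62 for Gzmg, with adjusted p from 0.00059 to 0.0032. In each of these 7, both 7-cycle libraries lay below the 3 libraries of 2 cycles, as they did for 29.9% of all genes tested. From 4 to 7 cycles it was -2.16 for Prf1, -1.84 for Gzmb, -2.53 for Gzmc, -2.52 for Gzmd, -2.06 for Gzme, -3.28 for Gzmf and -2.76 for Gzmg, with adjusted p from 0.015 to 0.041. The mice after 7 cycles were older than those after 2 or 4, and age and cycle number cannot be told apart. Groups of 2 or 3 libraries are too small for a check of single libraries that stand apart.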

How the results depend on the processing

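Of the counts of members called, those higher than vehicle after 2 cycles (7 or 8) and after 4 cycles (6 to 8), and those lower after 7 cycles than after 2 (7 or 8) and in regrowth than after 4 cycles (6 to 8), stayed within 1.5 times under all alternatives. With a 1.5-fold limit 1 member, Prf1, was called lower in regrowth than in vehicle (0 otherwise), and by group values without a test 1 member, Prf1, was lower after 4 cycles than after 2 (0 otherwise). The count lower after 7 cycles than after 4 ranged from 0 to 7 when single libraries were left out. It was 0 without 4-cycle library 1, where 0 of all genes tested were called lower. The log2 differences of the 7 were still -1.68 to -3.05 there and -1.88 to -3.11 without 7-cycle library 2. With all libraries they were -1.84 to -3.28. Gzmb was not called after 4 cycles with a 3-fold limit (log2 1.47). When single libraries were left out, uncalled differences from vehicle changed sign, with ranges after 7 cycles of -0.0546 to 0.72 for Gzma, -0.40 to 0.29 for Gzmd, -0.42 to 0.29 for Gzme and -0.46 to 0.41 for Gzmg. In regrowth they ranged from -1.31 to 0.65 for Gzma, -1.05 to 0.21 for Gzmb, -0.72 to 0.25 for Gzmc, -0.15 to 0.45 for Gzmd and -0.83 to 0.0356 for Gzmg. The cause was not tested. Where a group was left with 1 library, that library was assumed to vary like the other groups. No paired analysis was possible because the solved libraries carry no pool number. Rescaling moved the median of all genes by at most -0.09 (log2) and changed no call of a member. Few reads limit Gzmk, Gzmm and the late values of Gzma.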

Other observations

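Other proteases of the 2 granzyme neighbourhoods did not share one course. Of all genes tested against vehicle, 2.82% were called higher after 2 cycles, 3.35% after 4, 4.26% after 7 and 1.25% in regrowth. These shares stand beside each call in this paragraph. Near the granzyme B row on chromosome 14, 6 of 9 further serine protease genes were tested after 2 cycles. Ctsg, cathepsin G of neutrophils, was higher after 2 cycles (log2 3.61, adjusted p = 0.010), 4 cycles (3.92, adjusted p = 0.0047) and 7 cycles (3.55, adjusted p = 0.0098). Mcpt8, a basophil protease, was higher in regrowth only among the comparisons with vehicle (log2 1.51, adjusted p = 0.029). Beside Gzmm on chromosome 10, the neutrophil proteases Elane (log2 4.09, adjusted p = 0.0029) and Prtn3 (1.95, adjusted p = 0.0070) and the related gene Cfd (4.24, adjusted p = 0.049) were higher after 4 cycles, whereas Gzmm stayed below 0.57 FPKM in every library. Of 5 plasmacytoid dendritic cell markers, 2 were tested, and Bst2, which interferon also induces, was higher after 2, 4 and 7 cycles (log2 1.53, 1.56 and 1.60). Of 6 CD4 and regulatory T cell markers, 2 were tested after 2 cycles and limma called none, with 0 at an unadjusted p below 0.05 and 0 with the variance trend. The unadjusted limit was passed by 2763 of all 10138 genes tested. Foxp3 was listed at 0 after 7 cycles. Of 6 epithelial markers, 3 were tested, and Krt14 (log2 1.84, adjusted p = 0.018) and Krt19 (1.14, adjusted p = 0.046) were higher after 7 cycles and Epcam in regrowth (1.02, adjusted p = 0.0074).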
